A study of Mus with 6 samples.

Results

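Genes of prostaglandin synthesis, sensing and inactivation, namely Ptgs1, Ptgs2, Ptges, Ptger2, Ptger4 and Hpgd, were followed in mouse lens epithelial cells (LECs) after lens fiber cell removal. These 6 genes were found by their Ensembl identifiers among 55421 counted genes, and all 6 were listed in every library. The samples were lens capsules with attached LECs from wildtype C57BL/6 mice, labelled as 2 months old (the methods give an older range and both sexes), taken at 0 h or 6 h post cataract surgery (PCS), a procedure in which the fiber cell mass is lifted out of the living eye and the capsule stays behind. Each time point had 3 libraries, each made from a pool of 5 capsules. Both groups share genotype, strain and age and differ in the interval after surgery. The labels describe surgery on the first eye of a mouse and, 6 h later, on its other eye, so the 0 h eyes can come from mice that already carried an injured eye. Pools with capsules of the same mice are not named in the labels, and the pools were compared as unpaired.

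Prostaglandins are lipid mediators made from arachidonic acid, which phospholipases release from membranes. The cyclooxygenases, COX-1 encoded by Ptgs1 and COX-2 encoded by Ptgs2, convert it to prostaglandin H2, and terminal synthases then make the individual prostanoids. The enzyme from Ptges makes prostaglandin E2 (PGE2), which acts on cells through receptors that include EP2 (Ptger2) and EP4 (Ptger4), both known to raise cyclic AMP, and it is inactivated by the dehydrogenase from Hpgd. Ptgs1 is known as the steadily expressed cyclooxygenase gene of many tissues and Ptgs2 as one that inflammatory and growth signals induce. Prostaglandins are known in the eye for their part in inflammation after surgery.

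Depth was 20253239 to 24701039 gene-assigned read pairs in a 0 h library and 18039974 to 22496116 in a 6 h library. Levels are in CPM, that is, the read pairs of a gene per 1000000 read pairs of the library, with library sizes adjusted by TMM factors, which assume that most genes do not change. Differences were tested with edgeR's quasi-likelihood test over all 16810 genes that passed its filter on low counts, and a gene was called when its false discovery rate was at most 0.05 and its fold change above 2. Over all tested genes, the median of the log2 fold changes was close to 0 with TMM factors and −0.32 on library size alone, and rises and falls are relative to the TMM scale. The LEC label was checked against Pax6, Foxe3, Sox2, Epha2, Gja1 and Prox1, the 6 of 10 lens epithelial markers that could be named, whose summed level was 1700 to 1925 CPM in the 0 h libraries and 1510 to 1772 CPM in the 6 h libraries.

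The low-count filter left 5 of the 6 genes, and 2 of these 5, Ptgs2 and Ptger4, rose by 6 h PCS. None of the 5 fell by edgeR, by DESeq2 or by edgeR's exact test, and 0 had a decrease at an unadjusted p under 0.05. Over all tested genes, 5.35% were called, 4.53% as higher at 6 h PCS and 0.821% as lower. In both Ptgs2 and Ptger4 every library at 6 h PCS lay above every library at 0 h PCS, as was the case in 15.3% of all tested genes. The genes were chosen with earlier results of these libraries known, so the count is a description of these 6 genes. The pooled tissue cannot tell more RNA per cell from more cells of an expressing type.

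**Figure D1:**
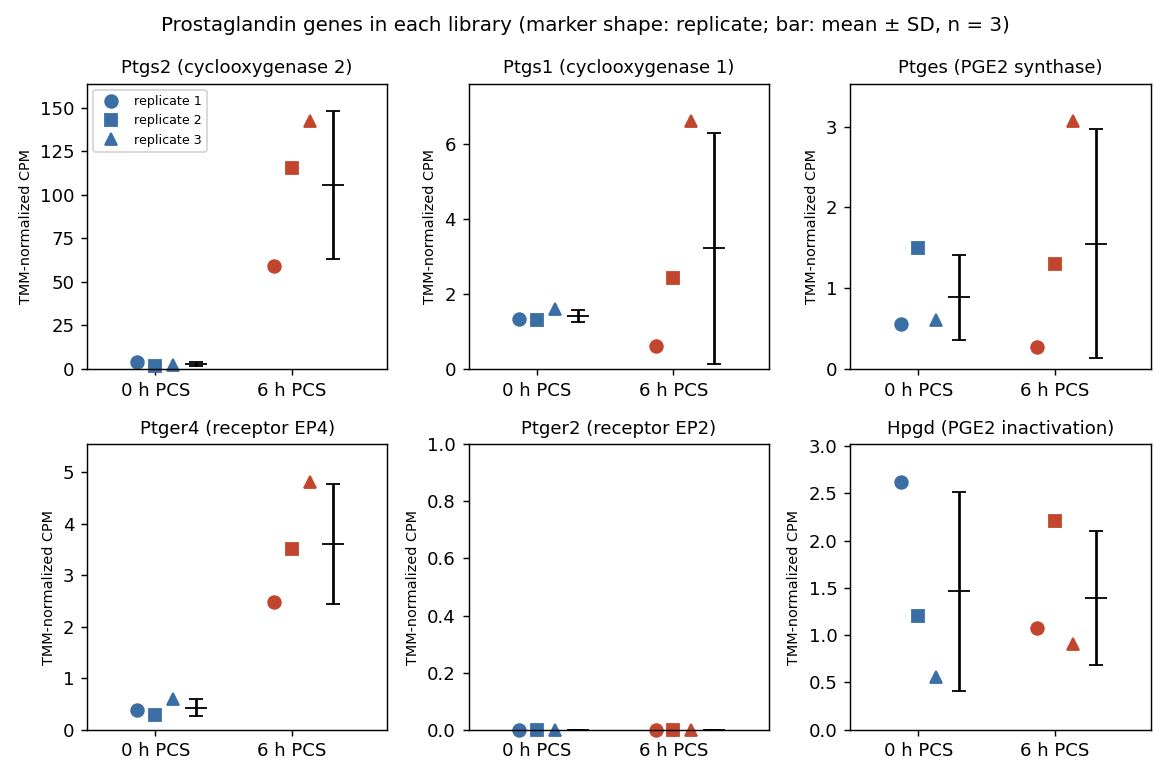
Level of each of the 6 genes in every library, as TMM-normalized CPM on linear axes that start at 0; circles, squares and triangles are replicates 1, 2 and 3, and black bars are the mean ± SD of 3 libraries. Ptgs2 and Ptger4 are separated between the time points, Ptgs1, Ptges and Hpgd overlap, and Ptger2 is at 0 throughout.

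Ptgs2 (ENSMUSG00000032487, chromosome 1 of GRCm38, 150100031 to 150108234), the gene of the inducible cyclooxygenase, was already detected at 0 h PCS. Its 3 libraries at 0 h PCS had 95, 46 and 52 counts, or 4.09, 1.68 and 2.24 CPM. By 6 h PCS the counts were 880, 2563 and 2366, or 59.1, 115 and 143 CPM. The lowest library at 6 h PCS, replicate 1, was thus far above the highest at 0 h PCS, also a replicate 1. The labels do not say whether the numbers pair the pools. The log2 fold change was 5.31 with a standard error (SE) of 0.487 (adjusted p = 0.00167 by Benjamini-Hochberg in the edgeR quasi-likelihood test), which corresponds to 39.7-fold with a 95% interval of 17.7-fold to 88.9-fold. It was the 35th largest increase among the 16810 tested genes. Ptgs2 was called under all 16 alternative analyses, with log2 fold changes from 5.02 on library size alone to 5.75 without 0 h replicate 1.

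Ptgs1 (ENSMUSG00000047250, chromosome 2, 36216742 to 36258593), the gene of the other cyclooxygenase, varied little between the pools at 0 h PCS and widely at 6 h PCS. It had 31, 36 and 37 counts at 0 h PCS, or 1.33, 1.31 and 1.60 CPM. The 6 h libraries had 9, 54 and 110 counts, or 0.604, 2.43 and 6.63 CPM. The 6 h replicate 1 was below all libraries at 0 h PCS, while the other two were above them, so the groups overlapped. The exact 95% Poisson intervals of the 3 counts at 6 h PCS, 4.12 to 17.1, 40.6 to 70.5 and 90.4 to 133, did not overlap, so these pools differed by more than counting error. The log2 fold change of 1.19 with an SE of 0.710 (edgeR, adjusted p = 0.358) had a 95% interval from 0.758-fold to 6.82-fold, which includes both no change and an increase above 2-fold. Without 6 h replicate 3 it was 0.12.

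The balance between the cyclooxygenase genes was compared within each library, where the scaling of libraries drops out. There were 3.06, 1.28 and 1.41 counts of Ptgs2 per count of Ptgs1 in the libraries at 0 h PCS. By 6 h PCS the ratios were 97.8, 47.5 and 21.5. These ratios are not corrected for transcript length, so their change between time points can be read but their size cannot be taken as a ratio of molecules. On a log2 scale with 0.5 added to each count, the ratio went from 0.81 ± 0.69 to 5.50 ± 1.06 (SD, n = 3), a difference of 4.69 or 25.8-fold, in an exact two-sided permutation test with p = 0.10. This is the smallest p that 3 against 3 libraries allow, and adjusted over the 2 ratios tested it was 0.20. All 3 libraries at 6 h PCS lay above all 3 at 0 h PCS, and 6 h replicate 1, with the lowest Ptgs2 count of its group, had the highest ratio.

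Read pairs of Ptgs2 made up 45.5% of those on the 6 genes in 0 h replicate 1 (95% exact binomial interval 38.6% to 52.5%), 28.0% in replicate 2 (21.3% to 35.6%) and 40.0% in replicate 3 (31.5% to 49.0%). At 6 h PCS the share was 93.0% in replicate 1 (91.2% to 94.6%), 92.4% in replicate 2 (91.4% to 93.4%) and 90.2% in replicate 3 (89.0% to 91.3%). All 3 shares at 6 h PCS lay above all 3 at 0 h PCS, and among them the intervals of replicates 2 and 3 did not overlap. The libraries were amplified by PCR without molecular identifiers, so all of these intervals cover counting error only.

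**Figure D2:**
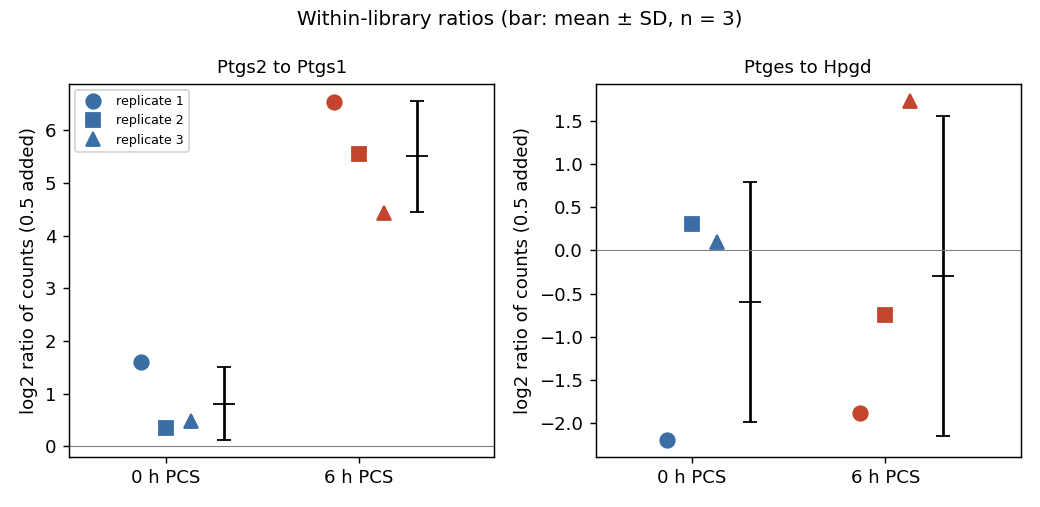
Within-library log2 ratios of counts, with 0.5 added to each count, of Ptgs2 to Ptgs1 (left) and of Ptges to Hpgd (right); symbols are replicates 1, 2 and 3 and black bars the mean ± SD of 3 libraries. The ratio of Ptgs2 to Ptgs1 is separated between time points, from 0.35 to 1.60 at 0 h PCS and from 4.42 to 6.53 at 6 h PCS, while that of Ptges to Hpgd overlaps.

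Ptges (ENSMUSG00000050737, chromosome 2, 30889471 to 30931020) encodes the inducible, membrane-bound PGE2 synthase that is known to work with COX-2. It had 13, 41 and 14 counts at 0 h PCS, or 0.559, 1.49 and 0.604 CPM. In the 6 h libraries it had 4, 29 and 51 counts, or 0.268, 1.30 and 3.07 CPM. The 6 h libraries held both the lowest and the highest level of the 6, on either side of the range at 0 h PCS. Its log2 fold change was 0.80 with an SE of 0.843 (edgeR, adjusted p = 0.621), with a 95% interval from 0.472-fold to 6.40-fold. Without 6 h replicate 3 it was −0.15, so the sign of the difference rested on that library. At these counts a rise like that of Ptgs2 lay outside the interval, whereas a change of 2-fold in either direction lay inside it.

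Hpgd (ENSMUSG00000031613, chromosome 8, 56294552 to 56321046), which encodes the enzyme that begins the breakdown of PGE2, had 61, 33 and 13 counts at 0 h PCS, or 2.62, 1.20 and 0.561 CPM. The later libraries had 16, 49 and 15 counts, or 1.07, 2.20 and 0.904 CPM. All 3 libraries at 6 h PCS fell within the range at 0 h PCS. The log2 fold change was −0.06 with an SE of 0.687 (edgeR, adjusted p = 0.972), with a 95% interval from 0.332-fold to 2.78-fold, and its sign changed in 5 of the 16 alternative analyses. The log2 ratio of Ptges to Hpgd within libraries, which sets 1 of the PGE2 synthase genes against 1 gene of PGE2 breakdown, was −0.59 ± 1.39 at 0 h PCS and −0.30 ± 1.85 at 6 h PCS (SD, n = 3). The difference of 0.30 was smaller than either SD (exact two-sided permutation p = 0.90, and 0.90 adjusted over the 2 ratios).

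Ptger4 (ENSMUSG00000039942, chromosome 15, 5233399 to 5244187) encodes the PGE2 receptor EP4. It had 9, 8 and 14 counts at 0 h PCS, or 0.387, 0.291 and 0.604 CPM. At 6 h PCS it had 37, 78 and 80 counts, or 2.48, 3.51 and 4.82 CPM, so every pool at 6 h PCS was above every pool at 0 h PCS. Its log2 fold change was 3.07 with an SE of 0.544 (edgeR, adjusted p = 0.00834), or 8.37-fold with a 95% interval of 3.61-fold to 19.4-fold. Only 1 library at 0 h PCS but all 3 at 6 h PCS reached the level of 0.481 CPM that the low-count filter required, so Ptger4 was tested because of its level at 6 h PCS. It was called in all 6 fits that left out a library, with log2 fold changes from 2.80 to 3.39 and adjusted p-values up to 0.0459 in edgeR's test. In a test against a fold change of 2 its adjusted p was 0.0518 and it was not called. Its increase ranked as the 220th largest, and whether it was smaller than that of Ptgs2 was not tested.

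Ptger4 and Ptgs2 were the genes with an exon length at hand, so their levels could be set side by side per length, as FPKM, the read pairs per kilobase of exon and 1000000 read pairs. Ptger4 was at 0.0635, 0.0487 and 0.104 FPKM at 0 h PCS and at 0.309, 0.522 and 0.635 FPKM at 6 h PCS. Ptgs2 was at 0.973, 0.407 and 0.561 FPKM at 0 h PCS and at 10.7, 24.9 and 27.3 FPKM at 6 h PCS. Per length, Ptgs2 was thus the more abundant of the pair in all 6 libraries. The mean of Ptger4 at 6 h PCS, 0.488 ± 0.166 FPKM (SD, n = 3), stayed under the 2 FPKM that the study's methods ask of a biologically significant gene, whereas Ptgs2 was above it in each library at 6 h PCS.

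Ptger2 (ENSMUSG00000037759, chromosome 14, 44988111 to 45003820), the gene of the receptor EP2, had 0 counts in all 6 libraries. A count of 0 allows up to 3 counts at a one-sided confidence level of 95%, which is a level of 0.109 to 0.201 CPM depending on the library. EP2 RNA was therefore not detectable at this depth at either time point, and over 125758463 read pairs on genes the summed count was 0. The planned ratio of Ptger4 to Ptger2 is not given, because with no Ptger2 count it would hold nothing but the Ptger4 count.

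The genes also differed in how far the pools of a group agreed. At 0 h PCS the coefficient of variation of the CPM values over the 3 pools was 11.2% for Ptgs1, 37.5% for Ptger4, 47.2% for Ptgs2, 59.5% for Ptges and 72.2% for Hpgd. At 6 h PCS it was 95.9% for Ptgs1, 91.6% for Ptges, 50.7% for Hpgd, 40.3% for Ptgs2 and 32.5% for Ptger4. Counting error alone would give 13.2% for Ptgs1 and 18.9% for Ptges at their mean counts at 6 h PCS, and 17.0% for Ptgs1 at 0 h PCS. At 0 h PCS, Ptgs1 thus varied no more than counting alone would give.

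**Figure D3:**
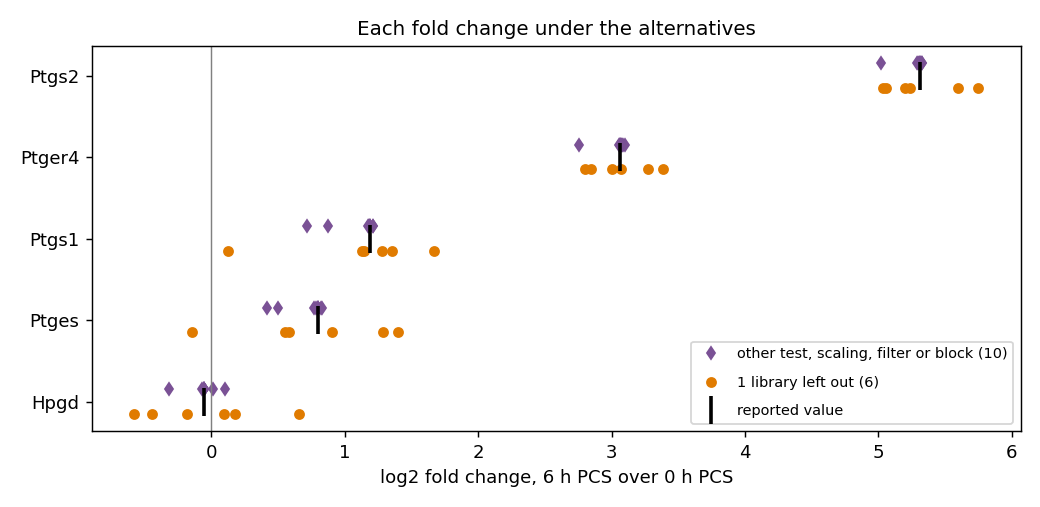
Log2 fold changes of the 5 tested genes, 6 h over 0 h PCS, as reported (black bars), under 10 other tests, scalings, filters or a block (diamonds) and with each of 6 libraries left out (circles). Ptgs2 stays between 5.02 and 5.75 and Ptger4 between 2.76 and 3.39, while the range of Ptgs1 comes down to 0.12 and those of Ptges and Hpgd include 0.

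Next to Ptgs2 on chromosome 1 lies Ptgs2os, a long noncoding RNA gene named for the opposite strand, at 150074873 to 150099874, with 156 bases between the annotated genes in RefSeq. Ptgs2os had 0, 2 and 0 counts at 0 h PCS and 6, 16 and 22 counts at 6 h PCS. It did not pass the low-count filter. The summed and scaled counts were 30.2-fold higher at 6 h PCS, with a counting interval of 7.89-fold to 257.5-fold that leaves out the differences between pools. Without the filter, over 28552 genes, its adjusted p was 0.0474 in edgeR's quasi-likelihood test. Dropping the filter moved the adjusted p of Ptger4 in that test from 0.00834 to 0.000133 and that of Ptgs2 from 0.00167 to 0.00723. The value of Ptgs2os is therefore not on the scale of the reported ones, and no call is drawn from it. Every library at 6 h PCS was above every library at 0 h PCS, as for Ptgs2. The methods name a stranded library kit, but the strand setting of the counting is not given in the sources used here. In RefSeq the genes do not overlap, and whether the counted gene models overlap was not checked. Without strand, reads within such an overlap could not be assigned to Ptgs2 or to its antisense partner.

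The other genes of prostanoid metabolism came from lists of 42 genes for arachidonate release, terminal synthases, receptors, and transport and inactivation. Of the 42, 12 could be matched to an identifier, and all 12 passed the filter. The names at hand lean towards genes that the study found changed. Of the 12, 2 were upregulated and 0 downregulated by edgeR, beside 4.53% and 0.821% of all tested genes. DESeq2 and the exact test gave the same counts of 2 and 0, and 2 genes were lower at an unadjusted p under 0.05 in edgeR. Their median log2 fold change was −0.01, beside a value close to 0 over all tested genes.

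In arachidonate release, 4 of 18 listed genes were measured and 0 were called in either direction, also by DESeq2 and the exact test and with 0 at an unadjusted p under 0.05 in edgeR. The most abundant was Anxa1, which encodes annexin A1, a protein known to restrain phospholipase A2, with a log2 fold change of −0.31 with an SE of 0.178 (edgeR, adjusted p = 0.338). Pla2g5, a secreted phospholipase A2 gene, had a log2 fold change of −0.23 (adjusted p = 0.475).

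Among the terminal synthases, 4 of 10 were measured and 1 rose, Tbxas1, the gene of thromboxane A synthase, which is known from platelets and macrophages. It was at 1.85, 1.28 and 1.55 CPM at 0 h PCS and at 4.09, 3.24 and 6.51 CPM at 6 h PCS, so that the groups did not overlap. Its log2 fold change was 1.56 with an SE of 0.418 (edgeR, adjusted p = 0.0488), and it was lost in each of the 6 fits that left out a library, with adjusted p-values from 0.0627 to 0.165, and on library size alone (adjusted p = 0.0731). Ptgds, the gene of the lipocalin-type prostaglandin D synthase, was at 505, 432 and 350.5 CPM at 0 h PCS and at 313, 721 and 1738 CPM at 6 h PCS. As in Ptgs1 and Ptges, the 6 h libraries of Ptgds lay on both sides of the range at 0 h PCS, and its log2 fold change of 1.11 did not pass (adjusted p = 0.379) and was 0.27 without 6 h replicate 3. Akr1b3, an aldose reductase gene whose enzyme can also make prostaglandin F2α, went from 49.1 ± 11.3 to 28.8 ± 0.286 CPM (SD, n = 3), or −0.77 in log2 fold change (edgeR adjusted p = 0.0302). It passed the limit on the false discovery rate but not that on the fold change, and on library size alone, with −1.08, it was called. In 5 of the 6 fits that left out a library, Akr1b3 did not pass the limit on the false discovery rate, with edgeR adjusted p-values of 0.0526 to 0.148, the exception being the fit without 0 h replicate 2 (0.0141). Ptges2, another PGE2 synthase gene, which is named here after its values were seen, was at 4.94 ± 1.22 CPM in the 0 h libraries and 5.24 ± 1.57 CPM in the 6 h libraries (SD, n = 3), and its log2 fold change was 0.09 (edgeR adjusted p = 0.905).

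Of the other prostanoid receptors, 1 of 7 was measured, Ptgfr for prostaglandin F2α. Its level was 1.51 ± 0.329 CPM in the 0 h libraries and 1.41 ± 0.772 CPM in the 6 h libraries (SD, n = 3), and this difference was smaller than either SD. Among the transport and inactivation genes, 3 of 7 were measured and 1 rose, Slco2a1, which encodes the prostaglandin transporter that carries prostaglandins into cells for breakdown. It was at 9.68, 6.19 and 15.4 CPM at 0 h PCS and at 34.6, 43.8 and 29.4 CPM at 6 h PCS, with no overlap. The log2 fold change of Slco2a1 was 1.79 with an SE of 0.315 (edgeR, adjusted p = 0.00932), and without 0 h replicate 1 its adjusted p was 0.0543. Slco3a1, an organic anion transporter gene, had a log2 fold change of 0.09 (adjusted p = 0.886), which was −0.21 on library size alone. In these 2 lists, 0 genes were downregulated by edgeR, DESeq2 or the exact test. In edgeR, 1 was lower at an unadjusted p under 0.05. This was Ptgr2, named here after its values were seen, with a log2 fold change of −0.42 (edgeR adjusted p = 0.166). Its libraries at 6 h PCS all lay below those at 0 h PCS, as did those of Anxa1 and Akr1b3. Such a separation was seen upward in 15.3% and downward in 15.3% of all tested genes.

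**Figure D4:**
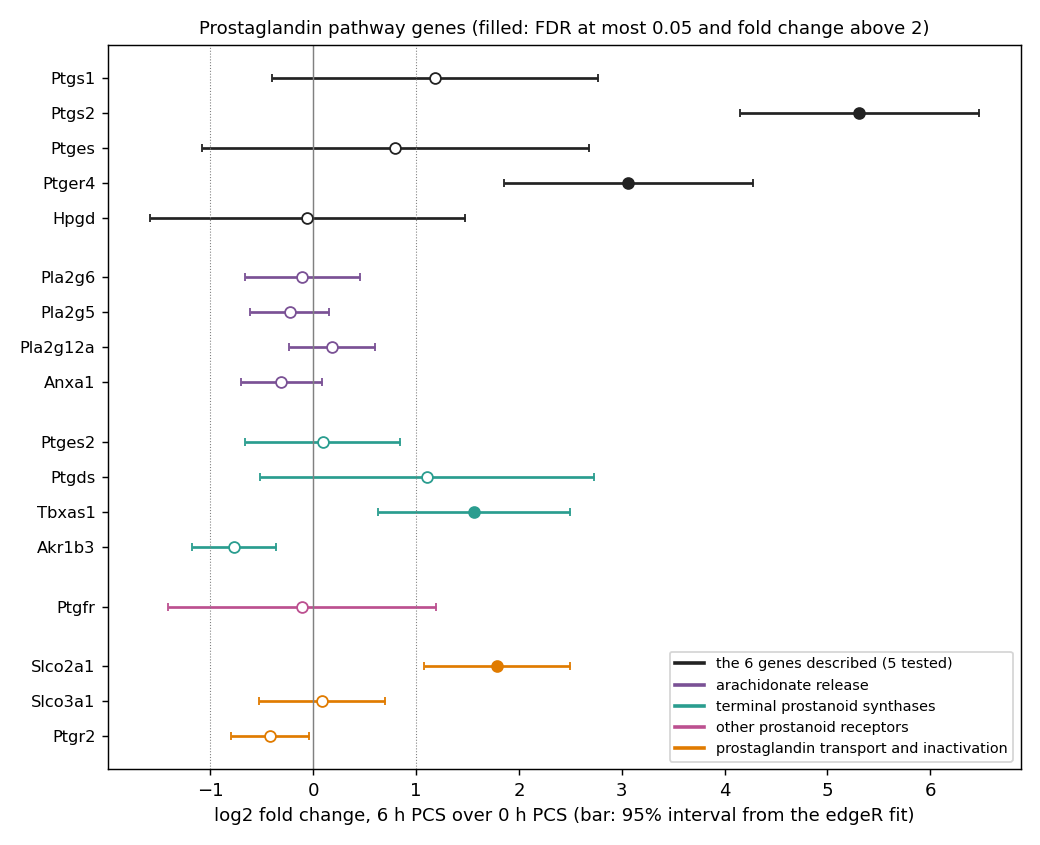
Log2 fold changes from 0 h to 6 h PCS with 95% intervals from the edgeR fit, for the 5 tested genes of the 6 and for 12 other pathway genes by role; filled points were called and dotted lines mark a fold change of 2. Ptgs2, Ptger4, Slco2a1 and Tbxas1 are filled, and the intervals of Ptgs1, Ptges, Hpgd and Ptgds include 0.

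Some markers of other cell types moved in the same libraries. Of 9 leukocyte markers measured, 2 rose, Cd68 and Cd14, and none of the 9 was at 0 in all libraries. The sum of the 9 was 19.5 to 33.1 CPM in the 0 h libraries and 28.5 to 58.9 CPM in the 6 h libraries. The mean of Cd14 went from 0.983 to 14.7 CPM and that of Cd68 from 1.03 to 5.99 CPM. Ptprc, the general leukocyte marker, did not pass (log2 fold change 1.29, edgeR adjusted p = 0.374). Itgam was also higher but did not pass (edgeR adjusted p = 0.401). The others were not called and had log2 fold changes near 0. These were −0.16 for Lyz2, −0.13 for C1qc, −0.11 for Csf1r, 0.06 for C1qb and 0.10 for Adgre1. All 4 erythrocyte markers rose, from a summed 4.96 to 10.7 CPM to 45.4 to 85.5 CPM. Of the 3 platelet markers found, Itga2b rose, Pf4 did not pass and Ppbp was under the filter, and their sum was 8.32, 11.1 and 36.8 CPM in 6 h replicates 1, 2 and 3, beside 4.26 to 5.68 CPM at 0 h PCS. The 4 pigment cell markers summed to 77.4, 455.7 and 1965 CPM in the same libraries and to 51.4 to 209 CPM at 0 h PCS, and 0 of the 4 were called by edgeR, DESeq2 or the exact test or had an unadjusted p under 0.05 in edgeR. Across the 3 libraries at 6 h PCS, Ptgs2, Ptger4, Ptgs1, Ptges and Ptgds were all lowest in replicate 1 and highest in replicate 3. So were the platelet, pigment cell, leukocyte and stromal sums. Slco3a1 and Ptgs2os also had this order, while Hpgd, Anxa1, Pla2g5, Tbxas1, Akr1b3, Ptges2, Ptgfr and Slco2a1 did not. The erythrocyte, endothelial and corneal epithelial sums did not have this order. Of the 4 stromal markers, Col1a1 had it, with 3.96, 37.7 and 116 CPM in 6 h replicates 1, 2 and 3. Col1a2, Pdgfra and Dcn did not. Among the leukocyte markers, Cd68, Cd14, Csf1r and Lyz2 were highest in replicate 3, whereas Ptprc, Adgre1, C1qb and C1qc were highest in replicate 2 and Itgam in replicate 1. The part of these cell types in the levels of the prostaglandin genes, Ptgs2 and Ptger4 included, was not tested.

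**Figure D5:**
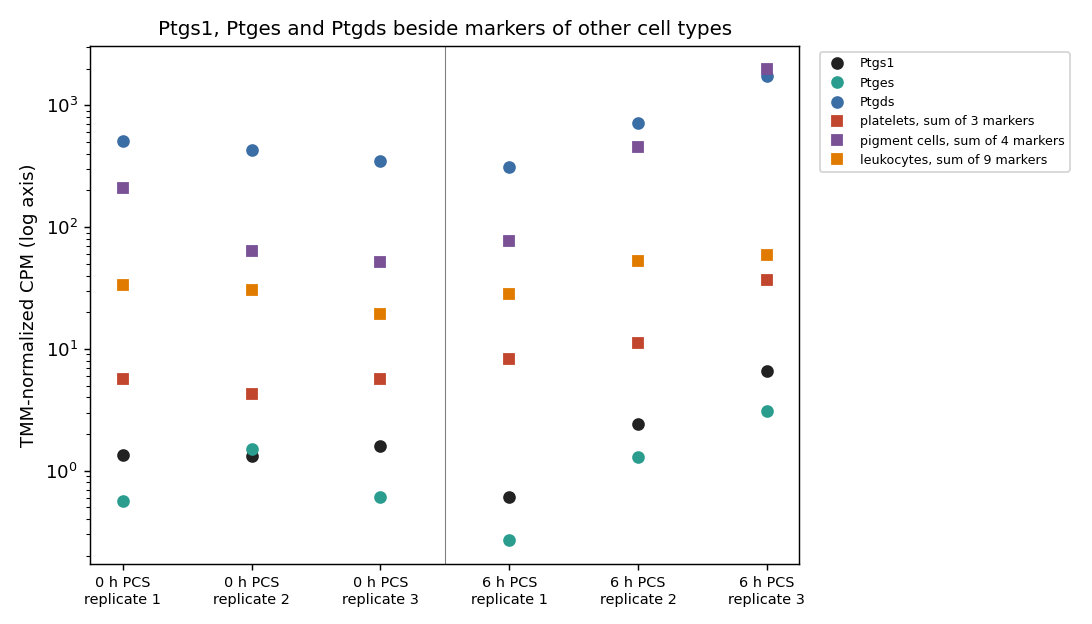
Levels of Ptgs1, Ptges and Ptgds (circles) and summed levels of platelet, pigment cell and leukocyte markers (squares) in each of the 6 libraries, as TMM-normalized CPM on a log axis. At 6 h PCS all of them are lowest in replicate 1 and highest in replicate 3, as are Ptgs2 and Ptger4, which are not drawn here.

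Of the remaining marker lists, 0 of 3 endothelial markers were called by edgeR, while 2 of 3 were called higher by DESeq2 and by the exact test and had an unadjusted p under 0.05 in edgeR, with sums of 3.75 to 25.9 CPM in the 0 h libraries and 19.3 to 35.8 CPM in the 6 h libraries. Both corneal epithelial markers, Krt12 and Krt5, were higher in every library at 6 h PCS, with 69.2 to 104 CPM against 0.765 to 14.7 CPM, and they were called by DESeq2 and by the exact test but not by edgeR's quasi-likelihood test, where both had an unadjusted p under 0.05. The 4 stromal markers, with sums of 213, 287 and 317 CPM in 6 h replicates 1, 2 and 3 and of 292 to 330.1 CPM at 0 h PCS, were not called by any of these tools, and 2 of them were lower at an unadjusted p under 0.05. Of the 6 lens epithelial markers, 1, Epha2, rose, and 3 were lower at an unadjusted p under 0.05. Of these 3, Prox1 (log2 fold change −0.75, edgeR adjusted p = 0.0119) and Sox2 (−0.70, edgeR adjusted p = 0.0151) passed the limit on the false discovery rate but not that on the fold change, and Pax6 (−0.51, edgeR adjusted p = 0.156) passed neither.

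For each called gene, the 3 genes with the most similar levels were sought among 6373 other tested genes with a name, by Pearson's r of log2 CPM over the 6 libraries. For Ptgs2 they were Sfn, Noct and Rab11fip1, each with r of 0.999. For Ptger4 they were Gcnt2, with r of 0.998, and Hmga1 and Pgm2, each with r of 0.997. The points of each correlation share libraries, depth and the difference between the time points, which spans most of their range. These 6 genes had log2 fold changes from 1.22 for Rab11fip1 to 3.52 for Gcnt2.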

How the data were processed

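RNAseq was made from LECs on lens capsules in 6 libraries, 3 at 0 h and 3 at 6 h PCS. The authors aligned read pairs to GRCm38 with Hisat2, used HTSeq (union mode) to count them on Ensembl genes, and deposited raw counts, with 5 summary rows per file that were left out here (33.6% to 41.2% of a file's read pairs lay on genes and entered the library sizes). The versions of these tools, trimming and the strand setting are not given in the sources used here. The counts were analysed with edgeR 4.0.16 in R 4.3.3 as in the methods of the study: TMM factors, the filter on low counts by group, robust dispersions and the quasi-likelihood F-test in its earlier form. The standard error is the absolute log2 fold change divided by the square root of F, and the 95% interval uses the moderated degrees of freedom. The test was also run on simulated counts, whose outcome is not given here. The methods describe the pools as separate animals, while the labels leave unsaid whether pools have mice in common, so p-values measure the spread between these pools. The pools of a group differed by more than sampling noise (chi-square per degree of freedom 24.9 or more), and none was counted as a duplicate.

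Symbols came from the part of the supplementary tables that was read, which names 7026 counted genes, and the 6 identifiers from the definition of the gene group. Exon lengths came from the same tables and positions from RefSeq on GRCm38.p6. Columns of the authors' own comparisons (fold changes, p-values) in those tables were not used. The genes, the lists for the pathway, the cyclic AMP arm, the lipoxygenase branch and the markers, and the alternatives were chosen with earlier results of these data known. Named were the 6 genes, called pathway genes, the 2 most abundant genes of each pathway list, and the 3 genes most like each called gene. Other genes named as marker examples were chosen after their values were seen. Mast cell markers had no matched identifier and were not analysed here. The result of 1 other marker list is not reported here. Alternatives were DESeq2 1.42.0, the exact test, the edgeR 4 method, no robust estimation, 2 other scalings, 2 other filters, a test against a fold change of 2, a block for the replicate number, another pseudocount for the ratios, and leaving out each library.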

Additional observations from a re-analysis of the deposited data

How the results depend on the processing

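Of the 6 genes, 2 were called in the reported analysis and under every alternative but one. In the test against a fold change of 2, 1 was called (Ptgs2). Of the 12 other pathway genes, 2 were called as reported, 1 without robust estimation, 0 in the test against a fold change of 2, and 0 to 1 with each library left out. Signs changed where no call was made. Hpgd was at 0.011 with the edgeR 4 method and ran from −0.58 to 0.66 with each library left out, Slco3a1 was at −0.21 on library size alone and ran from −0.11 to 0.32, Ptgfr from −0.64 to 0.15, and Ptges from −0.15 to 1.40. The log2 ratio of Ptges to Hpgd differed by −0.72 to 1.08 with each library left out, and that of Ptgs2 to Ptgs1 by 4.18 to 5.23. The causes were not tested. In the fits that left a group with 2 libraries, the spread was pooled over both groups.

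With the replicate number as a block, Ptgs2 and Ptger4 stayed called, 1 of the 12 pathway genes was called (Tbxas1 was lost), Hpgd was at 0.10, and 1050 genes were called in place of 900. Deviations of same-numbered libraries correlated at 0.00365, 0.223 and 0.139. The best-correlated 6 h library was replicate 3 for 0 h replicate 1 and the same-numbered one for 0 h replicates 2 and 3. The labels do not settle the pairing, and the numbers were not taken as pairs.

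Over all genes, 762 were higher and 138 lower as reported, and 572 and 627 on library size alone. The test against a fold change of 2 called 221 in place of 900, and without 0 h replicate 1 553 were called. Depth limits Ptger2, which had no count. For Ptgs1 and Ptges at 6 h PCS and Hpgd at 0 h PCS, the spread between pools (95.9%, 91.6% and 72.2%) exceeded that of counting alone (13.2%, 18.9% and 16.7%).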

Other observations

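In the arm downstream of EP2 and EP4, 15 of 28 listed genes of cyclic AMP synthesis, breakdown and response were measured, and 3 rose while 0 fell by edgeR, DESeq2 and the exact test, with 2 lower genes at an unadjusted p under 0.05 in edgeR. Over all tested genes 4.53% were called higher. The matched names lean towards changed genes, so the count is a description. Pde4b, the gene of a phosphodiesterase that breaks down cyclic AMP, was at 8.56, 9.58 and 7.94 CPM at 0 h PCS and at 60.3, 89.0 and 98.6 CPM at 6 h PCS, which is 3.25 in log2 fold change with an SE of 0.209 (edgeR, adjusted p = 6.84e-05). Sik1, a kinase gene known as a target of cyclic AMP signaling, had a log2 fold change of 1.63 (edgeR adjusted p = 0.00386), and in the test against a fold change of 2 its adjusted p was 0.132 and it was not called. Pde4c, a related phosphodiesterase gene, was at 0.129, 0 and 0.0432 CPM at 0 h PCS and at 1.01, 0.585 and 5.12 CPM at 6 h PCS (edgeR adjusted p = 0.0297). It reached the level of the low-count filter in 0 libraries at 0 h PCS and all 3 at 6 h PCS, so it was tested because of its level at 6 h PCS, and its call was lost in 4 of the 6 fits that left out a library, namely each without a library at 0 h PCS and the one without 6 h replicate 3, and in the test against a fold change of 2 (adjusted p = 0.118). Adcy1, an adenylyl cyclase gene, had a log2 fold change of 0.48 (adjusted p = 0.249).

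In the list for the lipoxygenase and leukotriene branch, 4 of 16 genes were measured. Of these, 1 rose and 0 fell by edgeR, DESeq2 and the exact test. In edgeR, 1 gene was lower at an unadjusted p under 0.05. Over all tested genes 4.53% were called higher and 0.821% lower, and here too the matched names lean towards changed genes. The gene that rose, Aloxe3, encodes an epidermis-type lipoxygenase known from the skin barrier. It was at 0.301, 0.911 and 0.345 CPM at 0 h PCS and at 9.46, 7.82 and 9.94 CPM at 6 h PCS, or 4.09 in log2 fold change with an SE of 0.466 (edgeR, adjusted p = 0.000814) and 4.78 without 0 h replicate 2. It reached the level of the filter in 1 library at 0 h PCS and all 3 at 6 h PCS, so it too was tested because of its level at 6 h PCS. Markers of the corneal epithelium were higher in the same libraries, and their part in the level of Aloxe3 was not tested. Lta4h, which encodes leukotriene A4 hydrolase, had a log2 fold change of −0.51 (adjusted p = 0.167), and Ephx2, an epoxide hydrolase gene, of −0.16 (adjusted p = 0.635).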
